A study of Sus scrofa with 6 samples.

Results

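Organic ion transporters and ABC transporters move drugs, toxins, urate, prostaglandins, bile salts and sterols across cell membranes. They were examined here in pig renal cortex as the probes whose gene name on the array begins with SLC22A, SLCO, SLC47A, or ABC followed by a letter from A to G and a digit. This rule found 34 of 43603 probes, carrying 16 of 36108 gene names, and no name began with SLC47A. A probe was tested where its signal was well above background, by the scanner software's own flag, on at least 3 of the 6 arrays, which left 28 probes of 11 genes.

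The animals were Large White pigs, 3 months old, and 1 array was run for each of 6 kidneys. The 3 control kidneys were removed, sampled and frozen at once. The 3 ischemia kidneys, from other pigs, stayed clamped for 60 min at 37 °C. They were then rinsed with cold UW (University of Wisconsin) preservation solution, which is made for organ storage, and lay at 4 °C for 24 h before sampling. Warm ischemia, flush and cold storage were applied as 1 sequence to every ischemia kidney and cannot be separated, and no kidney was reperfused. The comparison asks how the cortical RNA of these transporters differs after that sequence.

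In the proximal tubule, organic anions enter the cell from blood through the basolateral exchangers of the SLC22A family, and organic cations enter through other SLC22A members. Both leave for the urine through apical carriers and ATP-driven pumps, which differ in what they carry. ABCC2 and ABCG2 are apical pumps of this kind. SLCO genes encode organic anion transporting polypeptides, and several ABC proteins work inside the cell, in mitochondria or on ribosomes, with no role in drug export.

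Between 52.6% and 61.4% of the 43803 spots of an array were well above background, and no spot was saturated. Each slide carried 1 array of each group (control 1 with ischemia 2, control 2 with ischemia 3, control 3 with ischemia 1). Controls always occupied position 4 of a slide and ischemia samples position 3, which leaves the effect of position and the effect of group confounded: they cannot be told apart. Values are log2 processed signal minus the 75th percentile of the array, so a value of 0 is a signal equal to that percentile, and a difference is ischemia minus control. Levels of different probes are not compared, because each oligonucleotide binds with its own efficiency.

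The array names SLC22A6, the basolateral organic anion transporter that marks the proximal tubule, POAT1-1, so the name rule did not take it. Its accession ties it to SLC22A6 in the RefSeq gene table of Sscrofa11.1. By accession, gene number, older symbol or description, 46 further probes of 32 genes belonged to the same families under other array names, and 29 probes of 18 genes were tested. They are reported separately from the 34 members. In the same table SLC22A6 and SLC22A8 are direct neighbours on chromosome 2.

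The probes are 60 bases long, and the first 30 bases of those that carry the results are printed, with no part marked. The 4 probes of ABCC2 and the 4 of ABCA1 are shown because each set reports 1 gene through different sequences, with at most 6 bases in a row shared by any pair of a set.

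ABCC2 A_72_P502866: caagagagaactgctatcctggattttgtg

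ABCC2 A_72_P184591: ataaatgaatacatacatgtggaaaatgag

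ABCC2 A_72_P194682: atcatttatgtggctgttcagatattttat

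ABCC2 A_72_P048476: catttctgagtagcatcacctttagctggt

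ABCA1 A_72_P079266: ttgtgggaagaagcaaactggatactgtac

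ABCA1 A_72_P580532: tggcagtgtccaacatctgaaaaataggtt

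ABCA1 A_72_P064761: tatcaaacatccacgaagtacatcagaaca

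ABCA1 A_72_P154616: atcacgtcaagtataagatccggatggaca

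The probes of SLC22A6, of its neighbour SLC22A8 and of SLCO2A1 are shown because these genes had 3 of the 4 largest negative differences among the SLC22A and SLCO genes tested, the other being SLC22A16.

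SLC22A6 A_72_P303324: atcttcctctacactggggagctgtacccc

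SLC22A6 A_72_P588696: agatgctcgtctccgtgcccttttttgcct

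SLC22A8 A_72_P223472: ttttgcctactacagtttggctatgggtgt

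SLCO2A1 A_72_P247177: aagtcatttgccatcggggtacagttcttg

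No transporter passed the test across all probes. Of the 28 member probes, 0 had a limma adjusted p under 0.05, against 0.004% of the 25013 probes tested (1 probe). At an unadjusted limma p under 0.05 there were 4 member probes lower, 14.3% of the members against 3.31% of all probes, and 0 higher, against 2.99% of all probes, or 14.3% against 6.3% in either direction. A difference below 0 was found in 16 of the 28 (57.1%), close to the 55.8% of all probes. Of the 4 probes with an unadjusted p under 0.05, 3 belong to ABCC2 and 1 to SLCO2A1, so they stand for 2 genes. The excess over all probes depended on the setting. The shares that follow count either direction, with the share of all probes that were lower in brackets. Without control 1 the count was 2 (7.14%, 1 of them lower) against 11.7% of all probes (8.77% lower). Without control 2 it was 1 (3.57%) against 3.19% (1.73% lower). It was 2 without ischemia 2 (7.14% against 4.89%, 2.41% lower) and 3 with slide as a block (10.7% against 9.26%, 5.62% lower). With median centring it was 0 against 5.82% (1.97% lower). In the authors' deposited table, which keeps 1 row for each of these genes, it was 0 of 11 against 13.7% (1.23% lower). The median log2 difference of all tested probes was -0.04, and it was 0.11 with median centring and 0.14 in the deposited table. With 3 arrays per group the smallest p of an exact permutation test is 0.1, and that test was not run.

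**Figure D1:**
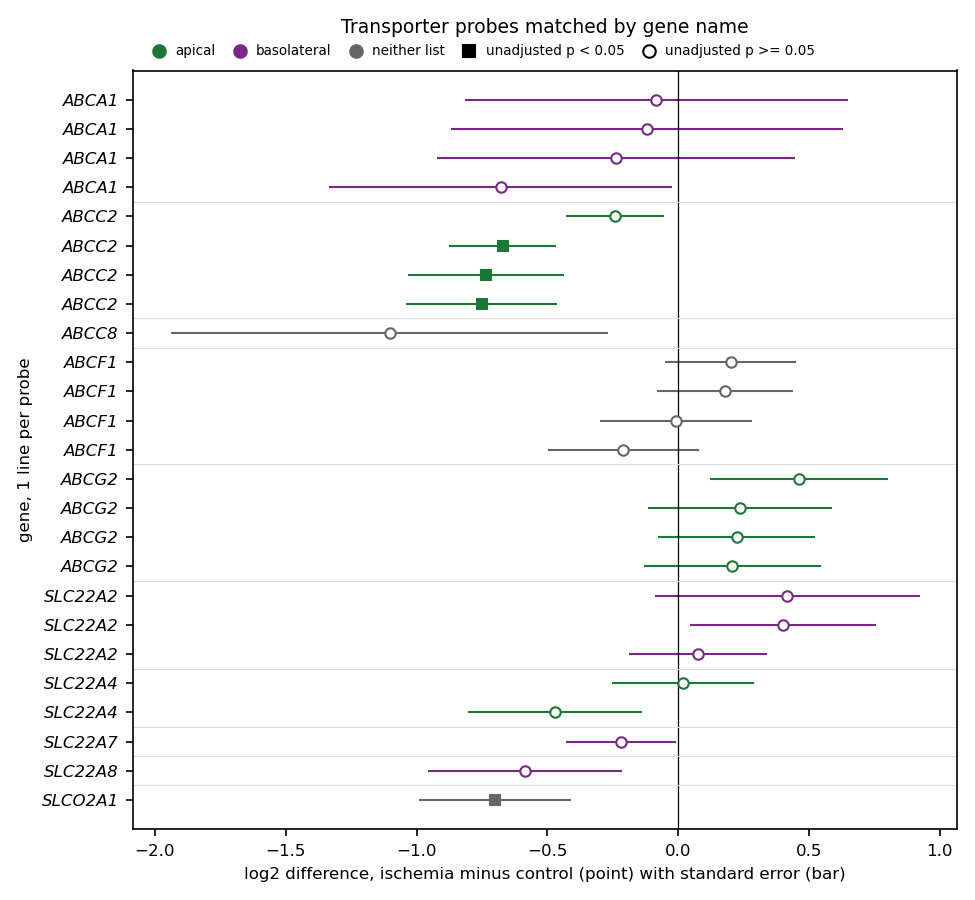
Log2 difference between ischemia and control (x axis, point) with its standard error (bar) for 25 of the 28 tested member probes (10 genes), 1 line per probe, coloured by the side of the tubule cell the protein is assigned to; filled squares have an unadjusted p under 0.05. The 4 filled squares, 3 of ABCC2 and 1 of SLCO2A1, lie left of 0, and the 4 ABCG2 probes and 3 SLC22A2 probes lie right of 0.

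SLC22A6, the exchanger that takes up para-aminohippurate and many acidic drugs, had the largest difference of the SLC22A genes, about 2-fold lower after ischemia on both of its probes. On probe A_72_P303324 the control values were 5.87, 5.41 and 5.70 and the ischemia values 5.37, 4.52 and 4.00, for ischemia 1, 2 and 3. All ischemia values lay below all control values, with ischemia 1 just below control 2. The log2 difference was -1.03 ± 0.36 (SE, n = 3 per group; limma adjusted p = 0.729), 2.04-fold lower. On the second probe, A_72_P588696, the control values were 4.28, 3.79 and 3.87 and the ischemia values 3.61, 2.77 and 2.17, again without overlap. That probe differed by -1.13 ± 0.37 (SE; limma adjusted p = 0.692), or 2.19-fold. Within slides the differences of the first probe were -1.36, -1.41 and -0.33, so slide 3, which holds ischemia 1, had the smallest. Over 16 other settings the SLC22A6 difference ran from -1.40 to -0.72.

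SLC22A8, the second basolateral organic anion transporter, differed less, and its groups overlapped. Control values were 5.25, 4.84 and 4.12, and ischemia values were 4.53, 4.35 and 3.58. Control 3 lay below ischemia 1 and ischemia 2, and the lowest value was that of ischemia 3. The log2 difference was -0.59 ± 0.37 (SE, n = 3 per group; limma adjusted p = 0.901), with a 95% interval from -1.46 to 0.29. Within slides it was -0.90, -1.27 and 0.41. SLC22A7, another basolateral organic anion transporter, had control values between -2.26 and -2.12 and ischemia values of -2.08, -2.53 and -2.58. Its log2 difference was -0.22 ± 0.21 (SE), with a 95% interval from -0.71 to 0.28, and it was 0.10 in the deposited table.

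Uptake of organic cations is represented by 2 members. SLC22A2, the main basolateral organic cation transporter of kidney, had control values of 4.72, 4.62 and 3.71 and ischemia values of 5.10, 4.94 and 4.22. The groups overlapped, and control 3 was the lowest of the 6 arrays. The difference was 0.40 ± 0.36 (SE, n = 3 per group; limma adjusted p = 0.930), and the other probes gave 0.42 ± 0.51 and 0.08 ± 0.26. Within slides the brightest SLC22A2 probe gave 0.22, -0.40 and 1.39, so its sign depended on the slide. SLC22A4, the apical ergothioneine transporter, differed by 0.02 ± 0.27 and -0.47 ± 0.33 on its 2 probes, and the first, the brighter, was at -0.02 with quantile normalization and -0.04 with normexp. The SLC22A13 probe, for an apical urate and nicotinate carrier, was well above background on 1 array and was not tested.

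**Figure D2:**
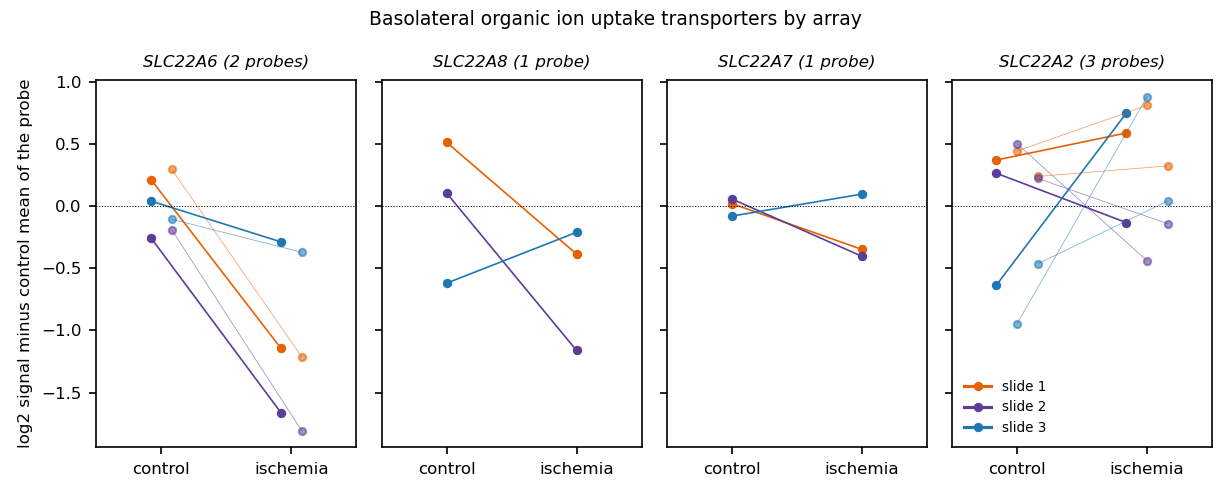
Log2 signal of each probe minus its control mean (y axis) in control and ischemia arrays for 4 basolateral uptake transporters; each line joins the control and ischemia array of a slide, and the brightest probe of a gene is drawn strongest. Both SLC22A6 probes are lower in ischemia on every slide, least on slide 3 (-0.33 and -0.27), whereas the sign of the SLC22A8, SLC22A7 and SLC22A2 differences varies between slides.

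Of the other SLC22A genes found under other names, SLC22A16, a carnitine transporter, had differences of -0.73 ± 0.22 (SE; limma adjusted p = 0.659) and -0.55 ± 0.25 (limma adjusted p = 0.836) on its 2 probes. On the probe with the larger difference the control values were -2.04, -1.67 and -2.19 and the ischemia values -2.87, -2.48 and -2.74. The groups did not overlap on either SLC22A16 probe. SLC22A15 was at 0.01 ± 0.18. SLC22A17, a lipocalin receptor, ran from -0.23 to -0.03 over 3 probes. The SLC22A3 probe was well above background on 0 of 6 arrays and went untested. ABCB1, SLC22A5 and SLC47A1 were not analysed here.

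SLCO2A1, the prostaglandin uptake carrier, was the only SLCO member tested by name. Its control values were -1.78, -2.34 and -1.71 and its ischemia values -2.16, -2.93 and -2.85. Control 2 lay below ischemia 1, so the groups overlapped, while ischemia 2 and 3 were below every control. The log2 difference was -0.70 ± 0.29 (SE, n = 3 per group; limma adjusted p = 0.778), 1.63-fold lower, and within slides it was -1.15, -0.51 and -0.45. It shrank to -0.24 with normexp background correction and to -0.11 in the deposited table. A second SLCO2A1 probe was well above background on 2 of 6 arrays, and the SLCO1A2 probe on 0. SLCO2A1 is also known from endothelium, and of 5 endothelial markers tested 4 had differences above 0 (median 0.11), with TEK at 0.78 ± 0.29. The share below 0 was 20%, against 55.8% of all probes. PECAM1 (0.09 ± 0.21), KDR (0.11 ± 0.24) and CDH5 (0.20 ± 0.27) were above 0 by less than their standard error, and VWF was at -0.03 ± 0.28. The summed endothelial signal, weighted toward its brightest probe, that of PECAM1, was 4.70 to 4.78 in controls and 4.50 to 5.11 in ischemia kidneys on the log2 scale. The part of endothelium in the SLCO2A1 value was not tested.

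Under other names, SLCO4C1, the basolateral carrier of cardiac glycosides and thyroid hormone in kidney, had values of 1.21, 1.70 and 0.83 in controls and 1.95, 2.12 and 0.51 in ischemia kidneys. Ischemia 1 and 2 lay above and ischemia 3 below every control, for a difference of 0.28 ± 0.46 (SE), and its second probe gave -0.01 ± 0.33. SLCO3A1 ran from -0.18 to 0.06 over 3 probes.

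ABCC2, the apical pump for glutathione and glucuronide conjugates, had negative differences on all 4 probes. On A_72_P502866, the brightest, the control values were 4.99, 5.04 and 4.88 and the ischemia values 4.58, 4.12 and 4.19. The groups did not overlap: the lowest control was at 4.88 and the highest ischemia value at 4.58. The log2 difference was -0.67 ± 0.21 (SE, n = 3 per group; limma adjusted p = 0.659), 1.59-fold lower. Probes A_72_P184591 and A_72_P194682 differed by -0.75 ± 0.29 (limma adjusted p = 0.751) and -0.73 ± 0.30 (limma adjusted p = 0.774). On both of these, control 3 was near the ischemia arrays, and the slide 3 differences were 0.07 and 0.08. Probe A_72_P048476 differed by -0.24 ± 0.19 (limma adjusted p = 0.916). Its groups did not overlap either, with controls from 1.71 to 1.88 and ischemia arrays from 1.37 to 1.65. Of the 28 member probes, these 2 ABCC2 probes, 7.14%, had all ischemia values below all control values, against 5.02% of all probes tested, and 0 had all above, against 5.89%. The ABCC2 difference was -0.52 with median centring and -0.22 in the deposited table.

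ABCG2, the apical efflux pump for urate and many drugs, had positive differences on all 4 probes. The brightest probe had control values of 3.46, 2.86 and 2.16 and ischemia values of 3.25, 3.09 and 3.52. The ischemia arrays lay close together (SD 0.22) and the controls were spread (SD 0.65), with control 3 lowest and control 1 above 2 of the ischemia arrays. The difference was 0.46 ± 0.34 (SE, n = 3 per group; limma adjusted p = 0.911), with a 95% interval from -0.34 to 1.26. The other 3 probes gave 0.21, 0.22 and 0.24. On slide 1 all 4 ABCG2 probes were lower after ischemia, by -0.57 to -0.24, and on slides 2 and 3 they were higher.

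**Figure D3:**
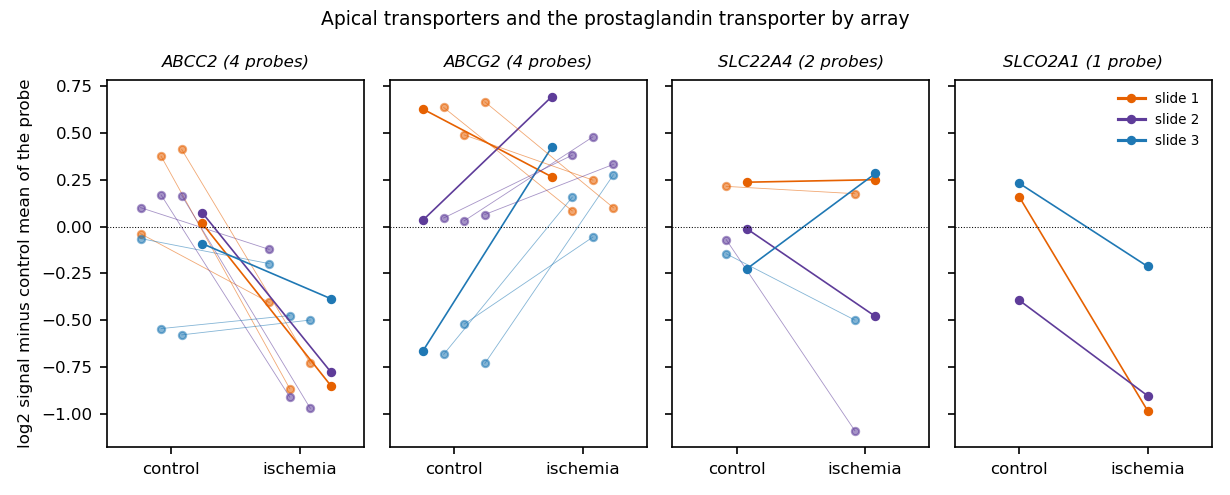
Log2 signal of each probe minus its control mean (y axis) in control and ischemia arrays for ABCC2, ABCG2, SLC22A4 and SLCO2A1; each line joins the arrays of a slide and the brightest probe is drawn strongest. ABCC2 lines slope down on slides 1 and 2 for every probe, ABCG2 lines slope down on slide 1 and up on slides 2 and 3, and SLCO2A1 is lower on each slide (-1.15, -0.51 and -0.45).

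ABCA1, which exports cholesterol and phospholipid to apolipoprotein, had the largest spread among ischemia kidneys of all tested members, with an SD of 1.47 to 1.62 over its 4 probes, against 1.12 for ABCC8, the next. The brightest ABCA1 probe had control values of 3.46, 3.39 and 3.07 and ischemia values of 2.49, 1.92 and 4.80. Ischemia 1 and 2 lay below every control and ischemia 3 above every control. The same order held on all 4 ABCA1 probes, with ischemia 3 highest and ischemia 2 lowest of the 6 arrays. The SD was 1.53 among ischemia and 0.21 among control arrays, and the difference of the means was -0.24 ± 0.68 (SE, n = 3 per group; limma adjusted p = 0.969). That mean stands for no array: without ischemia 3 the difference was -1.10, and without ischemia 2 it was 0.34. ABCA1 is also expressed by macrophages, and of 3 leukocyte markers tested 1 had a difference above 0, the macrophage scavenger receptor CD163 (1.42 ± 0.32), while the monocyte marker CD14 was at -0.42 ± 0.26 and the T cell marker CD3E at -0.03 ± 0.22. The summed leukocyte signal was 1.18 to 1.41 in controls and 1.59 to 2.66 in ischemia kidneys. The higher sum came from CD163, as CD14 and CD3E were not higher. CD163 was at 2.41, 1.77 and 1.18 in ischemia 1, 2 and 3, lowest in ischemia 3, where ABCA1 was highest. The part of leukocytes in the ABCA1 values was not tested.

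**Figure D4:**
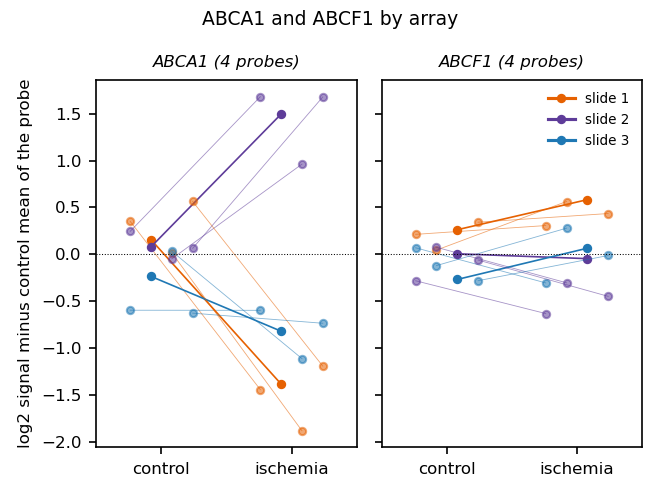
Log2 signal of each probe minus its control mean (y axis) in control and ischemia arrays for ABCA1 and ABCF1; each line joins the arrays of a slide. All 4 ABCA1 probes are highest in ischemia 3 (slide 2) and lowest in ischemia 2 (slide 1), while the mean differences of the ABCF1 probes stay between -0.21 and 0.20.

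The intracellular ABCF1, which acts in translation initiation, ran from -0.21 to 0.20 over its 4 probes. ABCC8, the sulfonylurea receptor, was dim, well above background on 2 control and 2 ischemia arrays, and its values of -3.34, -2.29 and -5.32 in controls and -4.24, -6.05 and -3.98 in ischemia kidneys gave -1.10 ± 0.84 (SE; limma adjusted p = 0.915). ABCB4, ABCB9 and ABCG5 were well above background on 2, 0 and 0 arrays and were not tested.

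Under other names, ABCB6, a porphyrin transporter, had control values of 5.21, 4.94 and 4.45 and ischemia values of 4.15, 4.52 and 3.82. Only ischemia 2 lay above the lowest control, and the difference was -0.70 ± 0.28 (SE, n = 3 per group; limma adjusted p = 0.769). ABCC1, a basolateral conjugate pump, had controls of -2.21, -2.06 and -2.04 and ischemia values of -2.49, -2.80 and -2.37, without overlap, and a difference of -0.45 ± 0.20 (limma adjusted p = 0.825). The ABCC1 difference shrank to -0.12 with normexp and to -0.06 in the deposited table. ABCC4, the apical pump for cyclic nucleotides and urate, was at -0.31 ± 0.28 and at 0.01 in the deposited table. ABCC5 was at -0.32 ± 0.41 and -0.54 ± 0.48 on its 2 probes and ABCC6 at -0.56 ± 0.34. The ABCC6 difference shrank to -0.11 with normexp and to -0.10 in the deposited table. ABCE1, a ribosome recycling factor with no transport role, was the only tested probe of these families with all ischemia values above all controls (0.28 ± 0.20). Of the 29 probes under other names, 0 passed at a limma adjusted p under 0.05. At an unadjusted p under 0.05 there were 4 lower (13.8%), 2 of SLC22A6 and 1 each of SLC22A16 and ABCB6, and 0 higher, against 3.31% and 2.99% of all probes. All ischemia values lay below all controls in 5 of the 29 (17.2%, against 5.02% of all probes). They were both SLC22A6 probes, both SLC22A16 probes and the ABCC1 probe, so they stand for fewer genes. The counts of probes under other names were not repeated under other settings.

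**Figure D5:**
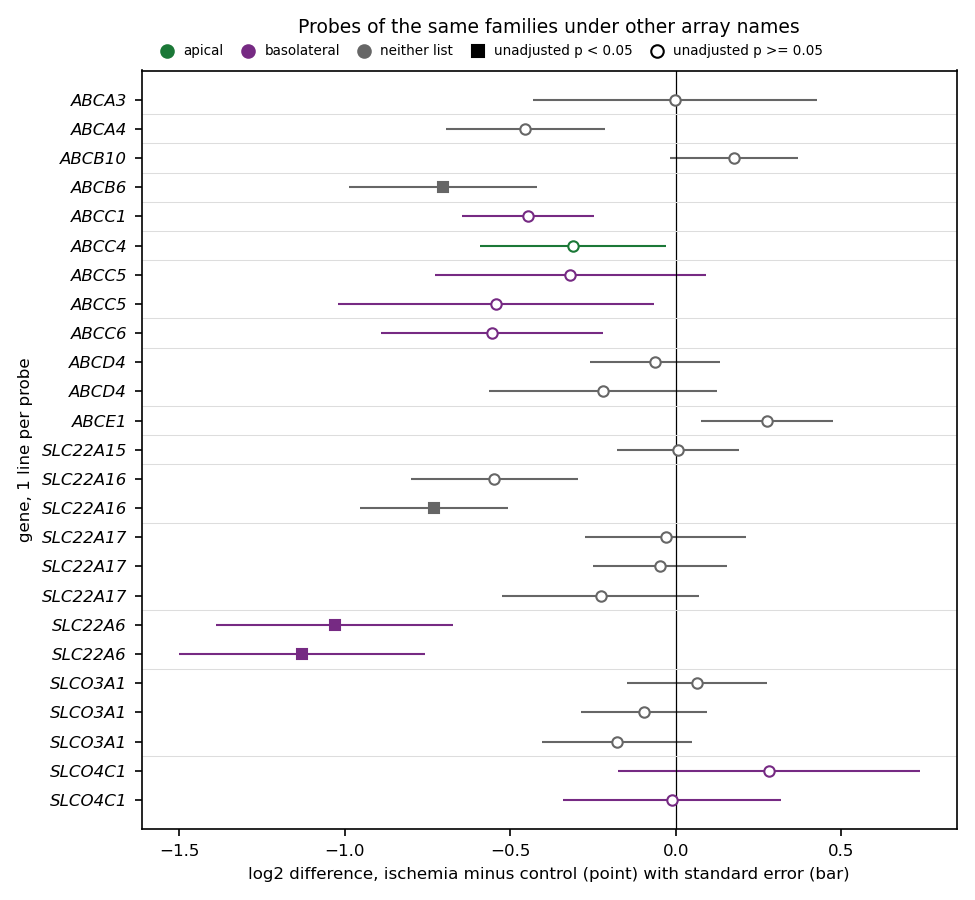
Log2 difference between ischemia and control (x axis, point) with its standard error (bar) for 25 of the 29 tested probes of the same families that the array lists under other names, 1 line per probe, coloured by side; filled squares have an unadjusted p under 0.05. Both SLC22A6 probes lie farthest left, at -1.13 and -1.03, and 20 of the 25 points lie left of 0.

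By family, with a gene represented by its brightest probe, the 4 SLC22A members had a median log2 difference of -0.10 (2 below 0 and 2 above), which was 0.05 with median centring and 0.08 in the deposited table. The 6 ABC members had a median of -0.09 (3 below 0 and 3 above), which was 0.06 with median centring and 0.16 in the deposited table. By side, the 3 apical members, ABCC2, ABCG2 and SLC22A4, ran from -0.67 to 0.46 with a median of 0.02, which was -0.02 with quantile normalization, -0.04 with normexp, -0.33 with no filter on dim probes and 0.27 without ischemia 3. The 4 basolateral members, SLC22A2, SLC22A7, SLC22A8 and ABCA1, ran from -0.59 to 0.40 with a median of -0.23, which was 0.14 in the deposited table and 0.08 without ischemia 2. That median lies between SLC22A7 (-0.22) and ABCA1 (-0.24), and the ABCA1 mean stands for no array. With all probes of a gene averaged, the medians lay close together, at -0.23 for the apical and -0.25 for the basolateral members. With the other names added, the median was -0.15 over 4 apical genes and -0.32 over 9 basolateral genes, of which 7 lay below 0. Over all 11 members it was -0.22, against -0.04 for all probes. The mean of the 11 members minus its control mean was 0.26, 0.14 and -0.40 in controls 1, 2 and 3. In ischemia 1, 2 and 3 it was -0.04, -0.39 and -0.21. Control 3 lay below every ischemia kidney, so the groups overlapped. The members' median was -0.07 with median centring, where that of all probes was 0.11, and 0.10 in the deposited table, where it was 0.14. It was -0.09 with quantile normalization and -0.04 with normexp, where that of all probes was 0.00, and -0.10 over probes above background on all 6 arrays, where it was -0.03. Each side held members of either sign, and no difference between sides was tested.

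The proximal tubule markers other than SLC22A6 lay in the same direction as SLC22A6 and ABCC2. Of the 7 tested, 7 had differences below 0 (median -0.64), against 55.8% of all probes. An unadjusted limma p under 0.05 was found for 4 of them (57.1%, against 3.31% of all probes lower), ANPEP, SLC34A1, GATM and MIOX, and 0 had an adjusted p under 0.05. Their summed signal was 10.19 to 10.74 in controls and 9.99 to 10.57 in ischemia kidneys on the log2 scale, so the groups overlapped. That sum is weighted toward its brightest probes, those of PCK1 and FBP1, which differed by -0.05 ± 0.27 and -0.15 ± 0.25 (SE). It says little about the dimmer markers. With each marker weighted equally, their mean minus its control mean was 0.33, 0.05 and -0.38 in controls 1, 2 and 3. In ischemia 1, 2 and 3 it was -0.60, -0.63 and -0.34, so control 3 lay below ischemia 3 and the groups again overlapped. The groups also overlapped for each of ANPEP, SLC34A1, GATM and MIOX. In cortex, fewer proximal tubule cells and less RNA per cell cannot be told apart, and the part of either in the transporter values was not tested. All tested markers of this list were well above background on every array, and LRP2, CUBN and SLC5A2 were not analysed here. The proximal tubule was not the only segment with lower markers. Of 3 collecting duct markers tested, 3 lay below 0 (median -0.41). In the thick ascending limb 1 of 2 did, and in the distal tubule 0 of 2. Each of these lists had 0 markers lower at an unadjusted limma p under 0.05.

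The list of partners takes in pumps that drive these transporters, scaffolds that hold them, receptors that regulate them, other carriers and further genes. It did not lie lower as a whole. Of 21 tested, 11 lay below 0 and 10 above (median -0.04), 0 passed at a limma adjusted p under 0.05, and at an unadjusted p under 0.05 there were 1 higher (4.76%, near the 2.99% of all probes) and 0 lower (against 3.31%). That probe was for NR1H4, the bile acid receptor FXR, with control values of 2.13, 1.88 and 1.82 and ischemia values of 2.74, 3.20 and 2.88. Its groups did not overlap, and its difference was 1.00 ± 0.21 (SE, n = 3 per group; limma adjusted p = 0.470). ATP1B1, a subunit of the sodium pump, which maintains the gradient behind organic anion exchange, was at -0.07 ± 0.21 (SE). HNF4A, a regulator of SLC22A genes in the proximal tubule, was at -0.51 ± 0.34, the scaffold PDZK1 at 0.14 ± 0.21, and the apical urate and phosphate carrier SLC17A1 at 0.13 ± 0.22. The most negative partner differences, of genes not named here, were -0.81 ± 0.45 and -0.74 ± 0.33.

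Across the 6 arrays, the signal of SLC22A6 followed that of SLCO2A1 (Pearson r = 0.93) and ABCC2 (r = 0.89) more closely than that of SLC22A8 (r = 0.75). These coefficients are descriptions over 6 arrays that share slides, a scaling and the group difference. Among 4133 named genes outside the families, the 5 with the highest correlation with SLC22A6 were DOLK (r = 0.99), POPDC3 (0.98), GUCD1 (0.97), PLEKHD1 (0.97) and PAX5 (0.95).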

How the data were processed

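Cortical RNA of each kidney was labelled with Cy3 and hybridised to 1 Agilent array, per the labels. The deposited scanner files hold spot intensity, background-subtracted and detrended within each array by Agilent Feature Extraction 10.10.1.1 per the file headers (version 11.5.1.1 in the submitters' processing notes, which also list limma and R 2.15.2). The authors' deposited table holds log2 values (36796 rows, column medians 5.91 to 5.99), whose normalization and combination of probes are not given in the sources used here. It was used only as an alternative.

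Outlier spots were left out, log2 processed signal was scaled to the 75th percentile of each array, and replicate spots were averaged. Tested probes needed a signal well above background on at least 3 arrays and a value on at least 5, which left 25013. The group difference of each probe was fitted by lmFit and eBayes of limma 3.58.1 (R 4.3.3), and two-sided p-values were adjusted by Benjamini-Hochberg across the tested probes. The fit was tested on simulated data. Names came from the files and a RefSeq gene table (12279 probes named, 31324 not).

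All SLC22A and SLCO genes, apical and basolateral ABC genes, and other ABC genes with an unadjusted p under 0.05 or a difference of at least 0.5 were named. Partner genes with an unadjusted p under 0.05 were named too. The other partners, the remaining ABC members and the genes under other names fall outside this rule and were chosen after their values were seen. Members and lists were chosen with earlier results of these data known. The labels state different pigs. Same-numbered arrays did not deviate together (correlations -0.35, -0.17 and -0.05), whereas arrays of a slide did (0.34, 0.10 and 0.33). The fit has no block, and slide and number are alternative blocks. With the slide block 9.26% of all probes had an unadjusted p under 0.05, against 6.3% without it, and 0 probes passed at an adjusted p under 0.05. Some genes of these families and lists enter the counts and medians but are not reported here by name.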

Additional observations from a re-analysis of the deposited data

How the results depend on the processing

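Member probes with a limma adjusted p under 0.05 numbered 0 in every setting run, and their number at an unadjusted p under 0.05, 4 of 28 with the settings used, was 0 with median centring and in the deposited table, 2 with quantile normalization and with normexp, and 1 to 5 when 1 array was left out. With the replicate number as a block it was 5 (17.9%, against 4.86% of all probes in either direction), and with slide as a block 3 (10.7%, against 9.26%). Over all probes the 1 call became 11 with median centring, 3 with normexp, the deposited table, the intensity trend or probes above background on all 6 arrays, 0 with quantile normalization, no filter, the slide block or the replicate block, and 0 to 1 without 1 array. The median of the members was 0.10 in the deposited table, -0.069 with median centring, -0.094 with quantile normalization, -0.040 with normexp, -0.10 over probes above background on all 6 arrays and -0.26 to -0.10 without 1 array. The SLCO value was -0.24 with normexp, -0.11 in the deposited table, 0.063 with the other names added (chosen after seeing the data) and -0.94 to -0.56 without 1 array. The apical median was -0.33 with no filter, -0.23 with the probes of a gene averaged and -0.11 to 0.27 without 1 array, and the basolateral median 0.14 in the deposited table and -0.31 to 0.078 without 1 array. The SLC22A and ABC medians ran from -0.24 to 0.07 and from -0.20 to 0.04 without 1 array.

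No single gene had a limma adjusted p under 0.05 in any setting, and signs turned for small differences. In the deposited table ABCA1 was at 0.19, ABCA3 at 0.095, ABCC4 at 0.0051, ABCD4 at 0.12, SLC22A17 at 0.061 and SLC22A7 at 0.099. With median centring ABCA3 was at 0.15 and ABCD4 at 0.086. With quantile normalization ABCA3 was at 0.20 and SLC22A4 at -0.017, and with normexp SLC22A4 was at -0.040. Leaving out 1 array turned signs within ranges of -1.10 to 0.34 for ABCA1, -0.40 to 0.46 for ABCA3, -0.72 to 0.0074 for ABCC5, -0.16 to 0.042 for ABCD4, -0.052 to 0.059 for SLC22A15, -0.46 to 0.050 for SLC22A17, -0.11 to 0.27 for SLC22A4, -0.020 to 0.20 for SLCO3A1 and -0.015 to 0.79 for SLCO4C1. The cause was not tested. The differences of SLC22A6, SLC22A8, SLCO2A1, ABCC2, ABCG2 and SLC22A2 kept their sign in all 16 settings run. Other genes did so too, among them ABCB6, ABCC1, SLC22A16 and ABCF1. Either block, the intensity trend and the other filters on dim probes leave the estimate of a probe as it is, so no sign could turn there. With 6 arrays, precision is low throughout.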

Other observations

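Genes of sterol balance were set beside ABCA1 after its values were seen, and are given as a description with no test. SQLE, an enzyme of cholesterol synthesis, had values of 2.27, 3.09 and 0.44 in ischemia 1, 2 and 3, against 1.01, 0.17 and 1.45 in controls. Ischemia 2 was its highest and ischemia 3 its lowest ischemia kidney, the reverse of ABCA1. MYLIP, a ubiquitin ligase induced by sterol receptors of the LXR type, had 1.99, 2.00 and 2.86 against 1.66, 1.80 and 1.40, highest in ischemia 3 as ABCA1 was. The transcription factor gene SREBF1 had 3.35, 3.07 and 2.75 against 3.27, 2.98 and 3.08, lowest in ischemia 3, unlike ABCA1 and MYLIP. SREBF2 had 3.34, 3.16 and 2.82 against 3.31, 3.04 and 2.86, also lowest in ischemia 3. NR1H3, which encodes a sterol receptor of the LXR type, ran from 3.77 to 4.34 over all 6 arrays.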
